A study of Oryctolagus cuniculus with 4 samples.

Results

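This comparison sets the control ligamentum flavum of L3/4 against the control ligamentum flavum of the neighbouring levels L2/3 and L4/5. Its members are the 2 arrays labelled as control level, out of 4 arrays in all, chosen by their labels. Total RNA was labelled with Cy3, and each group was put on 1 single-colour Agilent array for the rabbit, with all 4 arrays on 1 slide. Per the labels, rabbits aged 18 weeks had muscle over L3/4 resected and the levels L2/3 and L4/5 fused with instrumentation, which leaves L3/4 as the intervertebral stress concentration (ISC) level. Beside the ISC and the fused levels stand the 2 controls, called the L3/4 control and, for L2/3 with L4/5, the neighbour control. All 4 samples, controls included, are labelled as male, 34 weeks old and 16 weeks after surgery. Whether the controls were operated on, whether RNA of several animals was pooled, and whether L2/3 and L4/5 were pooled in 1 sample is not given by the labels used here.

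The ligamentum flavum joins the laminae of neighbouring vertebrae and is rich in elastic fibres made by its fibroblasts. Deep muscles of the back lie over its dorsal face, and fat and veins of the spinal canal lie along its ventral face. Fast skeletal muscle fibres carry their own isoforms of myosin, troponin and actinin, a calcium store served by the pump ATP2A1 and the buffer CASQ1, and large amounts of the enzymes that break down glycogen and glucose. Transcripts of these proteins are therefore markers of muscle RNA in a piece of ligament. The question put to the controls is how far control ligaments of different lumbar levels lie apart, and which tissues mark the difference.

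Levels are log2 signals relative to the 75th percentile of the array, so that 0 stands for that percentile, and a difference is the level in the L3/4 control minus that in the neighbour control. With 1 array per group no difference has a test or an error between animals, so that precision is limited by how few arrays there are. A difference of at least 2-fold, 1 on the log2 scale, is used as a fixed size. The spread over repeat spots of a probe (median SD 0.148 in the L3/4 control and 0.116 in the other control, over 50 probes) is technical.

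The L3/4 control stood apart from the other arrays. Over 12751 features (genes or transcripts) well above background on all 4 arrays, 17.3% were 2-fold or more apart between the controls, 18.7% between the L3/4 control and the ISC level, and 23.8% between the L3/4 control and the fused levels. The neighbour control was 2-fold apart from the ISC level at 7.31% of these features and from the fused levels at 16.4%, and the ISC and fused levels were apart at 13.3%. The pairs share arrays, and the array of the L3/4 control had the larger share with each of its 3 partners, and the closest pair was the other control with the ISC level. It also had the dimmest scaling signal, a 75th percentile of 53.4 against 72.7, 93.7 and 85.4 for the other control, the ISC level and the fused levels, and the smallest share of probes well above background, 59.6% against 61.1%, 67.9% and 65.0%. The part of signal strength in these shares was not tested.

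**Figure D1:**
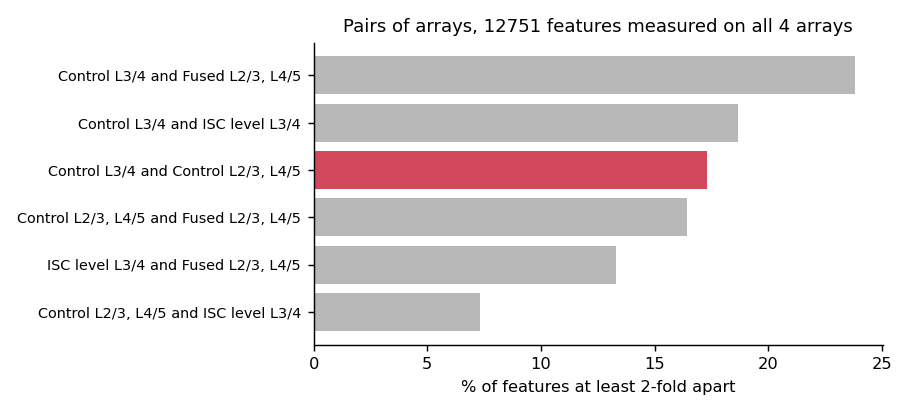
Horizontal bars give, for each pair of arrays, the percentage of 12751 features well above background on all 4 arrays that were 2-fold or more apart in either direction, with the pair of controls in red. The pair of controls stands at 17.3%, between 7.31% for the neighbour control with the ISC level and 23.8% for the L3/4 control with the fused levels.

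Of 22903 features, 13164 were well above background on both control arrays and are called measured here. Of these, 1116 (8.48%) were higher by 2-fold or more in the L3/4 control and 1194 (9.07%) lower by 2-fold or more. The differences had a median of 0.08 and an SD over features of 0.83, and the middle 50% of them lay between −0.39 and 0.49. The median technical error of a difference, from the scanner's error for each spot, was 0.21, and 48.9% of features differed by more than 2 such errors. Ordered by signal into 4 equal parts, from dimmest to brightest, the share 2-fold or more apart was 18.1%, 23.7%, 17.7% and 10.7%, so that it was smallest among the brightest features.

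The far ends of the distribution were unequal. Lower by 4-fold or more were 231 features (1.75%) and higher by 4-fold or more 131 (0.995%), while lower by 16-fold or more were 29 (0.22%) and higher by 16-fold or more 1 (0.0076%). Gene symbols could be given to 891 measured features, of which 102 (11.4%) were lower by 2-fold or more and 82 (9.2%) higher by 2-fold or more. All 11 named genes that were lower by 16-fold or more are muscle genes, 10 from the list of fast skeletal muscle and the eleventh the muscle filament gene DES. Of all 891 measured named genes, 43 belong to the lists of muscle or of glycolysis and glycogen. Of the 34 named genes lower by 4-fold or more, 22 do, and of the 10 higher by 4-fold or more, 0 do. The 0 of 10 is near the share over all named genes. Outside those lists, 848 named genes were measured, with 75 lower by 2-fold or more (8.84%), 81 higher by 2-fold or more (9.55%) and an SD of 0.82, so that the 2 directions were near equal there.

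**Figure D2:**
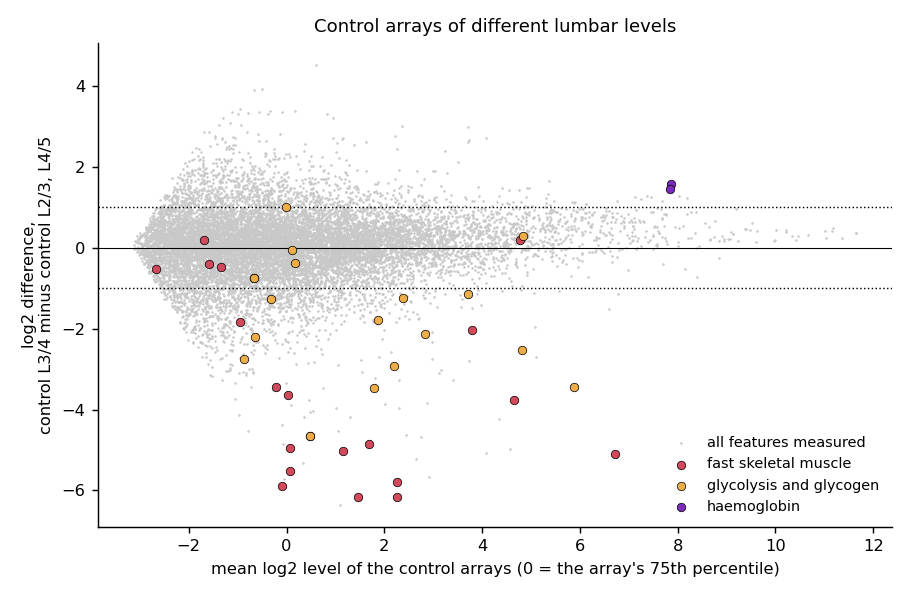
Each point is a feature measured on both control arrays, with the mean log2 level of the controls on the horizontal axis, the log2 difference (L3/4 control minus neighbour control) on the vertical axis, and dotted lines at 2-fold. Fast skeletal muscle genes (red) reach −6.17 at levels from dim to bright, glycolysis and glycogen genes (orange) reach −4.65, and the haemoglobin genes (violet) stand at 1.45 and 1.59.

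Of the lists described here, that of fast skeletal muscle had the lowest median difference. Of 31 fast skeletal muscle genes that could be named on the array, 21 were measured, 15 of them lower by 2-fold or more in the L3/4 control and 0 higher by 2-fold or more, with a median difference of −3.77 beside 0.08 over all features. A further 8 were well above background in the neighbour control and not in the L3/4 control. The other 2, the calcium channel gene CACNA1S and the myogenic factor gene MYOG, were so on neither control. With those 8 taken at their bounds, explained below, 23 of 29 genes were lower by 2-fold or more and the median was −4.65. The median level of the 21 measured genes was −1.59 in the L3/4 control, 2.82 in the neighbour control, −2.03 at the ISC level and −2.64 at the fused levels. By these medians the neighbour control is the array that was high, while the L3/4 control lay near the ISC and fused levels. Some of the 8 genes with bounds differed in this, as given below. In bulk samples such as these, fewer muscle fibres and less RNA per fibre cannot be told apart.

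Genes of the thick and thin filaments had differences of up to −6.17. In what follows, 4 levels in a row are those of the L3/4 control, the neighbour control, the ISC level and the fused levels, in that order. MYL11, the regulatory light chain of fast myosin, had levels of −0.82, 5.35, −0.30 and −0.82, a difference of −6.17 between the controls. MYL1, the essential light chain, had levels of −0.64, 5.14, 0.61 and −1.51, a difference of −5.78. MYH1, a heavy chain of fast fibres, had levels of 2.77, 6.54, 2.43 and 1.54, and its 4 probes gave differences from −3.97 to −3.71. All of them were high in the neighbour control and lower by several units on the other 3 arrays. MYH13, the heavy chain of extraocular muscle, was at −5.02 by its brightest probe, but its 3 probes ranged from −5.02 to 0.61, so that its value rests on the probe chosen. TNNC2, which binds calcium in the fast troponin complex, had levels of 4.17, 9.26, 4.16 and 3.24, a difference of −5.09. TNNI2, the inhibitory subunit of the same complex, had levels of −0.72, 4.11, −0.39 and −1.08, a difference of −4.84. The filament-anchoring actinin ACTN3 of fast fibres had levels of −1.63, 4.54, −0.81 and −2.64, a difference of −6.16. At each of these 3 genes the neighbour control again lay above the other arrays, which lay closer together. TPM1, a tropomyosin found in several muscle types, was at −2.02, with its 7 probes between −2.18 and −2.02.

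Genes of calcium release and uptake were lower as well, though less evenly. CASQ1, the calcium buffer of the fast fibre's store, had levels of −2.70, 2.82 and −2.98 on the first 3 arrays and was not well above background on the fused array. Its 5 probes gave differences from −5.62 to −5.31. ATP2A1, the calcium pump of fast fibres, had levels of −1.79, 1.85, −2.59 and −3.26, with 9 probes between −4.11 and −3.57. The probes of both genes thus lay close together, with the neighbour control high. SYPL2, a membrane protein of the triad, was at −3.44 and JPH1, which holds the store to the surface membrane, at −1.84. Under 2-fold were TRDN, the triadin that ties calsequestrin to the release channel, at −0.53, and HRC, a calcium-binding protein of the store, at 0.20. From a list of excitation and contraction genes drawn up after values had been seen, 7 of 17 measured genes were lower by 2-fold or more and 0 higher, with a median of −0.40. It added the channel subunits CACNB1 at −3.01, with 6 probes between −3.23 and −2.66, and CACNA2D1 at −1.88. A further 4 genes of this list were well above background in the neighbour control and not in the L3/4 control. With these at their bounds, 11 of 21 genes were lower by 2-fold or more, 0 higher by 2-fold or more, and the median was −1.05.

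Among genes of muscle energy supply, CKM, the creatine kinase of muscle, had levels of −2.41, 2.55, −2.66 and −2.80, a difference of −4.96, and the neighbour control was again the high array. PPP1R3A, which ties a phosphatase to glycogen in muscle, was at −5.88 from the 1 of its 3 probes that was measured, and was not well above background on the ISC array. SLC2A4, the insulin-dependent glucose carrier of muscle and fat, was under 2-fold at −0.75. Also under 2-fold were MSTN, the growth inhibitor myostatin, at −0.48 and CAPN3, a muscle protease, at 0.20. Among the fast muscle genes described so far, those far apart were mainly of filaments, calcium handling and energy supply. The list was largely drawn from such classes, and TRDN, HRC and SLC2A4 of the same classes were under 2-fold.

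Several muscle genes gave a bound, because they were well above background in the neighbour control and not in the L3/4 control. The bound sets the signal of the brighter array against the higher of the gene's own signal and the dimmest signal that counted as well above background on the dimmer array. PYGM, the muscle glycogen phosphorylase, was at least 92.0-fold lower in the L3/4 control. MYOZ1, which binds actinin at the filament anchor, was at least 82.8-fold lower. The calcium release channel gene RYR1 was at least 41.4-fold lower, the stretch-responsive ANKRD1 at least 30.5-fold and SRL, sarcalumenin, at least 25.2-fold. These are the 5 largest bounds in that direction, and all are members of the fast muscle list. Of 97 named genes with a bound in that direction, 43 were lower by 2-fold or more, beside 29 of 69 higher by 2-fold or more in the other direction, where the largest bound was 11.6-fold. The sarcoglycan gene SGCA was at least 6.53-fold lower. Of these genes, MYOZ1 and RYR1 were well above background at the ISC level (−1.56 and −1.87) and the fused levels (−2.34 and −2.73). PYGM and SRL were so at the ISC level (−2.19 and −2.67) and not at the fused levels, and ANKRD1 and SGCA at neither.

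**Figure D3:**
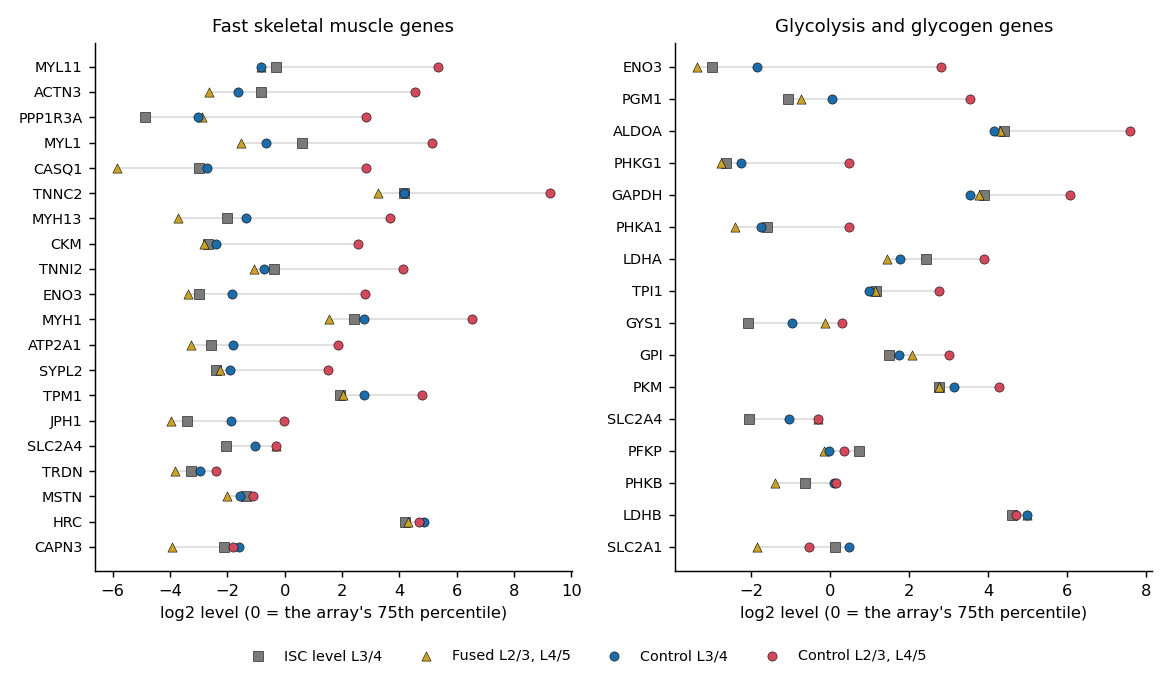
Log2 levels (0 is the 75th percentile of the array) of the measured fast skeletal muscle genes (left) and glycolysis and glycogen genes (right) on the 4 arrays, 20 of 21 and 16 of 17 genes shown, 1 array per group with no error bars, ordered by the difference between the controls. For the upper genes of both panels the neighbour control (red circles, marked Control L2/3, L4/5) lies to the right of the other 3 arrays, as for TNNC2 at 9.26 against 4.17, 4.16 and 3.24. Points of PPP1R3A at the ISC level and of CASQ1, MYH13, JPH1, TRDN and CAPN3 at the fused levels were not well above background.

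The measured genes of the slow and cardiac muscle list had a median near 0. Of 10 named on the array, 7 were measured, with 1 lower by 2-fold or more, 0 higher by 2-fold or more and a median of 0.02, which lay between −0.07 and 0.03 over 7 ways of scaling the arrays. The exception was SLN, sarcolipin, which restrains the calcium pump, with levels of 3.75, 6.44, 1.41 and 1.57. Its difference was −2.69, with 5 probes from −3.13 to −1.17, and both controls lay above the ISC and fused levels. CASQ2, the calsequestrin of slow and cardiac muscle, had levels of −0.16, −0.65, −3.27 and −2.62, a difference of 0.49. It too was higher in both controls than on the other arrays, with the controls under 2-fold apart. PLN, the phospholamban that restrains the slow and cardiac pump, was at 0.02 and the cardiac release channel RYR2 at −0.37. That pump, ATP2A2, was at 0.14 by its brightest probe, with 5 probes from −1.13 to 0.14. TNNC1, the troponin C of slow and cardiac fibres, was not among the 7 measured. It was at least 6.29-fold lower, being well above background in the neighbour control alone. With the 2 list genes of that kind taken at their bounds, 2 of 9 were lower by 2-fold or more, 0 higher, and the median was −0.08. The near-0 median therefore does not speak for slow fibre filaments.

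Genes of glycolysis and glycogen metabolism were lower in the L3/4 control. Of 19 named on the array, 17 were measured, 12 of them lower by 2-fold or more and 1 higher by 2-fold or more, with a median of −1.78. The median levels were 0.48, 2.81, 0.75 and −0.13 in the order given above, so that the neighbour control was again the high array. The enolase ENO3 (levels −1.85, 2.81, −2.99 and −3.36, difference −4.65) is the muscle form and a member of both lists. PGM1, which links glycogen to glycolysis, had levels of 0.06, 3.53, −1.05 and −0.72, a difference of −3.47. ALDOA, the aldolase of muscle, had levels of 4.15, 7.59, 4.39 and 4.30, a difference of −3.44. At all of them the neighbour control was the high array. GAPDH, which is found in all cells and often serves as a reference gene, had levels of 3.55, 6.07, 3.90 and 3.76, a difference of −2.52. For these genes the L3/4 control was within 2-fold of the ISC and fused levels, apart from PGM1 at the ISC level and ENO3 at both. Of the glycogen enzymes, the phosphorylase kinase subunits PHKG1 and PHKA1 were at −2.74 and −2.21 and the synthase GYS1 at −1.27. Further along glycolysis, LDHA, the muscle-type lactate dehydrogenase, was at −2.12, TPI1 at −1.78, GPI at −1.25 and PKM at −1.14.

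Some genes whose product is not confined to fast muscle were nearer to 0. The heart-type lactate dehydrogenase LDHB was at 0.28, the platelet-type phosphofructokinase PFKP at −0.37 and the kinase subunit PHKB, shared between muscle and liver, at −0.06. SLC2A1, the glucose carrier of most cells, had levels of 0.48, −0.53, 0.12 and −1.84 and was the gene higher by 2-fold or more, at 1.01, and at 0.92 with the authors' scaling. Without genes that are also in the muscle list or belong to muscle glycogen breakdown, the median of the remaining 13 glycolysis genes was −1.27. Muscle markers moved with this result (median −3.77, 15 of 21 lower by 2-fold or more), and their part in it was not tested. Of the mitochondrial genes, the respiration genes SDHD at 0.995, just under 2-fold, ATP5PO at 0.77 and SLC25A4 at 0.22 were all above 0, although SLC25A4 was below 0 with quantile normalization, cyclic loess and normexp. A longer mitochondrial list, drawn up after values had been seen, had 1 of 15 measured genes lower by 2-fold or more, the channel VDAC2 at −1.02, 0 higher and a median of −0.02. A further 2 of its genes were well above background in the neighbour control and not in the L3/4 control, among them CKMT2, the mitochondrial creatine kinase of muscle, at least 24.2-fold lower.

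The matrix and cell markers of ligament were present on both controls. All 6 named tendon and ligament genes were measured, with 1 higher by 2-fold or more, 1 lower by 2-fold or more and a median of −0.10. COL1A2, a chain of type I collagen, had levels of 7.90, 8.42, 8.79 and 7.80, a difference of −0.52 with 11 probes from −1.10 to −0.26. All 4 arrays were within 2-fold of one another at this gene, though with cyclic loess the controls differed by −1.04. OGN, the small proteoglycan osteoglycin, had levels of 8.32, 8.09, 7.72 and 8.27, a difference of 0.23 with 5 probes from 0.23 to 1.03. With quantile normalization its difference was −0.24. TNMD, the tenomodulin of tendon and ligament fibroblasts, had levels of −1.94, −1.88 and −2.03 and was not well above background on the fused array, with a difference of −0.06. By their brightest probes the controls were thus under 2-fold apart at these 3 genes, apart from COL1A2 with cyclic loess. Other probes of COL1A2 and OGN reached past 2-fold. At 10 genes of the fast muscle list the controls were at least 16-fold apart. LUM, lumican, was at −0.15. BGN, the small proteoglycan biglycan, was at −1.12, although its other probe gave −0.23. DCN, decorin, was at 1.29 by its brightest probe on the controls, but its 6 probes ranged from −0.31 to 1.29, and its sign turned with quantile normalization (−0.48). No gene of the elastic fibre list could be named, so elastin and fibrillin are not reported here.

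Most matrix turnover and cartilage genes were under 2-fold, by counts that depended on the scaling. Of 9 measured proteases and inhibitors, 2 were lower by 2-fold or more and 0 higher, with a median of −0.06. With quantile normalization 4 of the 9 were lower and the median was −0.42, and with cyclic loess 4 of 9 with a median of −0.32. MMP13, a collagenase, had levels of −2.69, −0.88, −0.43 and −0.33, a difference of −1.80, and the L3/4 control was the low array. TIMP1, a metalloprotease inhibitor, had levels of 2.02, 3.03, 3.07 and 1.77, a difference of −1.01, and the gelatinase MMP2 was at −0.06. Of 10 measured cartilage and bone genes, 2 were lower by 2-fold or more, the parathyroid hormone receptor PTH1R at −1.70 and the related hormone PTHLH at −1.59, and 0 were higher, with a median of −0.14. This list too had 4 of 10 lower, with medians of −0.65 and −0.64, in the same settings. PTH1R had levels of −1.75, −0.05, −1.88 and −2.33 and was high in the neighbour control alone, as the muscle genes were. The collagen-degrading protease CTSK was at −0.90, the calcification inhibitor MGP at 0.10 and COL8A1, a chain of a short-chain collagen, at −0.10. The cartilage collagen COL2A1 was at −0.14 by its brightest probe, but its 5 measured probes ranged from −2.46 to −0.14, and it was at −1.33 as their mean and at −1.40 with quantile normalization. Both enzymes of proteoglycan precursor supply that passed 2-fold were lower, PAPSS2, which makes the sulphate donor, at −1.47 and UGDH, which makes glucuronate, at −1.04, among 4 measured genes with a median of −0.85. A further 2 genes of this list, GPC6 and EXT1, were well above background in the neighbour control and not in the L3/4 control. They were at least 5.21-fold and 3.32-fold lower. With these at their bounds, 4 of 6 genes were lower by 2-fold or more, 0 higher by 2-fold or more, and the median was −1.25.

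Growth factor genes lay in both directions. FGFR2, a receptor for fibroblast growth factors, had levels of −1.75, 0.87, −0.63 and −0.73, a difference of −2.61. FGF7, a ligand of that receptor family, had levels of −0.46, −2.55, −2.83 and −2.36, and its 3 measured probes gave 2.09 to 2.15. FGFR2 was thus lowest in the L3/4 control and highest in the neighbour control, with the ISC and fused levels between them. FGF7 was high in the L3/4 control, which stood alone there, since the other 3 arrays were close together. HGF, hepatocyte growth factor, was at 1.46, with levels of −0.79, −2.25, 0.76 and 1.15 that put the neighbour control lowest. TGFB2, a ligand of the TGF-beta family, was at −1.05, with 3 probes from −1.39 to −1.05. Of 8 measured growth factor genes 2 were higher by 2-fold or more and 1 lower, with a median of −0.21. Among 6 TGF-beta and BMP genes, 1 was higher (DCN, which the list holds as a binder of TGF-beta) and 1 lower, with a median of −0.05. IGF1 was at least 5.27-fold higher, being well above background in the L3/4 control alone.

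Markers of blood were higher in the L3/4 control. The haemoglobin genes HBA, with levels of 8.65, 7.07, 7.76 and 9.17, and HBB2, with levels of 8.56, 7.11, 7.76 and 9.17, differed by 1.59 and 1.45. For both the neighbour control was the lowest array and the fused levels the highest, and HBB2 was under 2-fold, at 0.90, with quantile normalization. Of 10 measured genes of neutrophils and marrow, 4 were higher by 2-fold or more and 0 lower, with a median of 0.40. These were CAMP, the cathelicidin precursor, at 1.58, the defensin MCP2 at 1.30, the granule proteoglycan SRGN at 1.22 and the calprotectin subunit S100A9 at 1.12. With normexp background correction, which shrinks differences of dim genes by its offset, 0 of the 10 reached 2-fold and the median was 0.20. CAMP had levels of 0.59, −0.99, −0.17 and 5.15, so that the spread between the controls was small beside the level at the fused levels. The other 6, among them the receptors CXCR1 at −0.04 and CXCR2 at −0.12 and the oxidase subunit NCF1 at 0.11, were under 2-fold, with BPI at 0.68. Of 3 measured macrophage genes, the receptor TLR2 was lower at −1.24, CD14 was at −0.49 and LGALS3 at 0.18. On 1 control array only were TLR4, at least 2.76-fold lower, and CD80, at least 1.67-fold higher. With these at their bounds, 2 of 5 macrophage genes were lower by 2-fold or more and 0 higher by 2-fold or more. Of 3 genes of MHC class II, the 2 measured were under 2-fold, and RLA-DMB, well above background in the neighbour control and not in the L3/4 control, was at least 3.15-fold lower.

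Vessel and smooth muscle genes were near the level of all features, with exceptions. Of 9 measured endothelial genes, 1 was higher by 2-fold or more, the transcription factor SOX17 at 1.48 with levels of −0.95, −2.43, −3.52 and −2.47, and 0 were lower, with a median of 0.06. The endothelin gene EDN1 was at 0.04, the nitric oxide synthase NOS3 at 0.06 and thrombomodulin (THBD) at −0.999, just under 2-fold and at −1.09 with the authors' scaling. Thus 1 endothelial gene was past 2-fold and 8 were not, though VCAM1, an adhesion molecule at −0.06, had probes up to 2.05. Of 11 measured smooth muscle and myofibroblast genes, 2 were higher by 2-fold or more and 3 lower, with a median of 0.25. DES, the intermediate filament desmin, had levels of −2.51, 2.35, −2.23 and −1.94, a difference of −4.85, and like TPM1 it is also expressed in skeletal muscle. MYH11, the myosin heavy chain of smooth muscle, had levels of 4.97, 3.70, 2.79 and 3.63, a difference of 1.27, and the L3/4 control was the highest array. The smooth muscle actin ACTA2 was at 0.62, the contraction regulator CALD1 at 0.97 and the kinase ROCK1 at 1.03 (0.93 with quantile normalization), whereas the potassium channel KCNMA1 was at −1.33. DES and TPM1 were thus low where MYH11 was high, so that the list held both directions.

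Fat and nerve markers were few. Of 6 measured adipocyte genes, PPARG, the regulator of fat cell formation, was higher at 2.85 and LPL, lipoprotein lipase, lower at −1.998, and the median was −0.20. PPARG had levels of 0.63, −2.23, −1.37 and 0.40 and LPL levels of −1.74, 0.26, 0.69 and 2.81, so that these 2 genes of fat went opposite ways between the controls. The adipocyte hormones ADIPOQ, at −0.60, and LEP, at −0.05, were under 2-fold. A further 2 adipocyte genes were well above background in the neighbour control and not in the L3/4 control. Of these, APOE was at least 2.84-fold lower. With both at their bounds, 2 of 8 adipocyte genes were lower by 2-fold or more, 1 higher by 2-fold or more, and the median was −0.47. Of the Schwann cell and nerve genes, S100B, a calcium-binding protein of glia, had levels of 0.64, −0.59, −0.44 and 0.94, a difference of 1.23 with 5 probes from 0.81 to 1.23, and was under 2-fold with normexp at 0.66. The neighbour control was the lowest array there, and 4 other genes of this list were well above background on neither control.

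**Figure D4:**
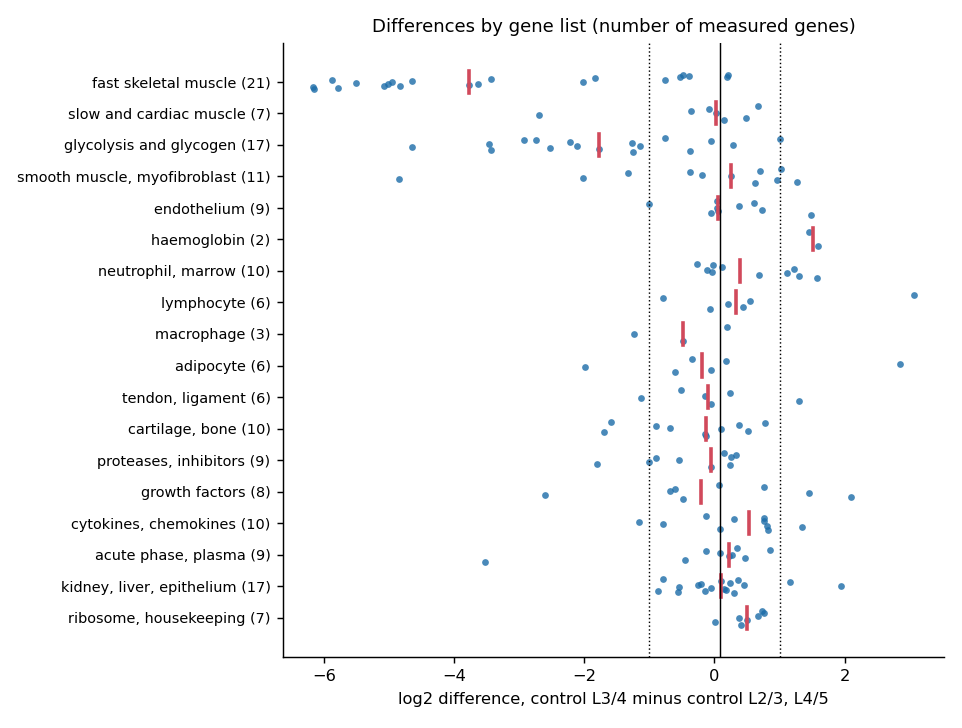
Each point is the log2 difference (L3/4 control minus neighbour control) of 1 measured gene of a list, the red bar is the list's median, the solid line the median of all features (0.08) and the dotted lines 2-fold, with a gene that belongs to several lists shown in each. The medians of fast skeletal muscle (−3.77) and of glycolysis and glycogen (−1.78) lie below −1, and that of the 2 haemoglobin genes above 1.

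Inflammatory genes passed 2-fold at about the share of all features (8.48% higher, 9.07% lower). Of 10 measured cytokine and chemokine genes, IL15, which supports lymphocytes, was higher by 2-fold or more at 1.34 and CCL2, a monocyte attractant, lower by 2-fold or more at −1.16, and the median was 0.53. SAA3, an acute-phase serum amyloid, was at −3.52 while 8 further measured plasma protein genes were under 2-fold, with a list median of 0.22. SAA3 had levels of −2.03, 1.49, 1.52 and 1.05, and here the L3/4 control was the low array and the other 3 close together. The lipoprotein receptor VLDLR, at which the L3/4 control was also the lowest array, had levels of −0.9997, 2.47, 1.20 and 1.45, a difference of −3.47 and 3 measured probes from −3.47 to −3.15. Of 6 measured lymphocyte genes, 1 was higher by 2-fold or more, the kinase PRKCB at 3.07, and the median was 0.33. PRKCB had levels of 0.39, −2.68, −2.19 and 0.84, read from 1 of its 6 probes, while CD4 was at −0.08 and CD5 at 0.44.

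The 15 named genes with the lowest differences were 12 members of the fast muscle list with DES, SAA3 and VLDLR. The 15 highest held 0 members of the muscle or glycolysis lists. Of all 891 measured named genes, 43 are in those lists and 21 in the fast muscle list, so 0 of 15 is near the share over all. After PRKCB and PPARG, the highest described here were MDFIC, an inhibitor of myogenic factors, at 2.32 with 5 probes from 2.13 to 2.55, the kinase EIF2AK1 at 2.20 and the vitamin transporter SLC5A6 at 2.14. EIF2AK1 had probes from −0.54 to 2.22 and SLC5A6 from 0.12 to 2.14, so that both depend on the probe. LARK was at 2.13, the cyclic GMP-dependent kinase PRKG1 at 2.06 with probes from 0.72 to 2.06, and TACC3, a protein of the mitotic spindle, at 2.02. LARK had levels of 4.57, 2.44, 2.77 and 2.43 and TACC3 levels of 0.31, −1.71, −1.65 and 2.08. The L3/4 control stood alone at LARK, whereas at PRKCB and PPARG it lay near the fused levels, and at TACC3 between the fused levels and the other 2 arrays. Further genes of the 15 were FGF7, CYP2C16 at 1.95, SERPINB10 at 1.83, GMPR2 at 1.79, AP5M1 at 1.74 and LY96, a partner of the endotoxin receptor, at 1.73.

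**Figure D5:**
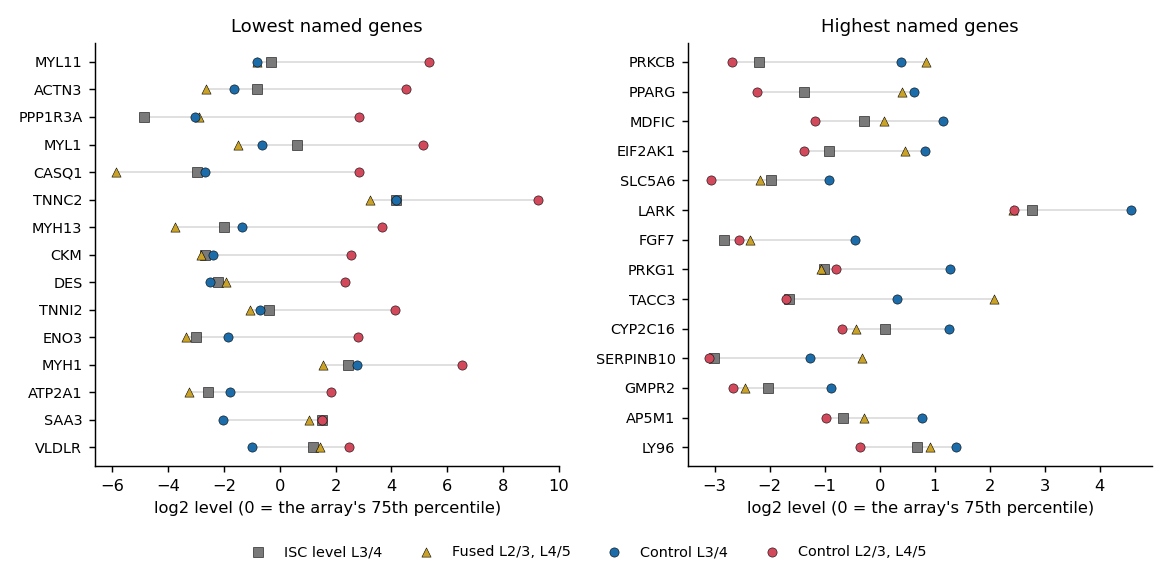
Log2 levels (0 is the 75th percentile of the array) on the 4 arrays of the 15 named genes with the lowest difference between the controls (left) and of 14 of the 15 with the highest (right), with 1 array per group and no error bars; the horizontal axes differ. Left, the neighbour control (red circles) is the high array for 12 fast muscle genes and DES, while for SAA3 and VLDLR the L3/4 control (blue circles) is the low one; right, differences reach 3.07 for PRKCB.

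How far probes of 1 gene answer alike bounds these values. Of 393 named genes with several measured probes, the median range of the difference over probes was 0.42. Of the 83 of these that were at least 2-fold by their brightest probe, 75 had all probes on 1 side of 0, 53 had all probes at least 2-fold the same way and 8 had a probe of the opposite sign. All 7 measured ribosomal and housekeeping genes lay above 0, from PPIA at 0.01 to the ribosomal protein RPL5 at 0.76, but 4 of 7 did so with quantile normalization or cyclic loess, and 0 of them reached 2-fold. ACTB, cytoplasmic actin, was at 0.41 by its brightest probe, with 3 probes from −2.31 to 0.49. With normexp background correction, 33 of the 75 list members and top genes that had reached 2-fold and were measured in that setting were under it, and 0 turned their sign. Among them were FGF7 at 0.63, HGF at 0.50, TGFB2 at −0.66, MMP13 at −0.39, PTH1R at −0.59, PAPSS2 at −0.63, SOX17 at 0.49, LPL at −0.71, IL15 at 0.52 and CCL2 at −0.27.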

How the data were processed

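Per the labels, total RNA was labelled with Cy3, and per the submitters' processing notes arrays were read with Agilent Feature Extraction 12.0.3. The deposited scanner files hold linear spot intensities, background-subtracted within each array per the file headers, and these files carry no scaling between arrays. Control spots and flagged spots (3 to 7 per array) were left out, 0 spots were saturated, spots of a probe were averaged, and log2 intensity minus the array's 75th percentile was taken (Python 3.11.15, pandas 2.3.3, numpy 2.4.6).

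RefSeq accessions named 3792 of 43603 probes (8.70%) and 1398 genes, and the others are unnamed here. A gene is represented by its brightest probe over both controls. A feature is measured when well above background on both. The 27 gene lists (984 symbols), the members compared and the alternatives were chosen with earlier results of these data known, and 3 further lists after values were seen. Named genes are the 15 lowest and 15 highest, list members, and the 5 largest bounds each way.

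Alternatives used limma 3.58.1 in R 4.3.3 (quantile, cyclic loess, normexp with offset 50, on median spot signals since the files used here hold no mean) and the authors' deposited value table, whose intensities are the processed signal multiplied by a constant of each array (medians 442 and 504 for the controls), which settles its scale and direction, while how the constants were chosen is unknown. A few measured genes are not reported here. Planned promoter sequences were not used here. The scripts were tested on simulated data.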

Additional observations from a re-analysis of the deposited data

How the results depend on the processing

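Median centring, quantile normalization, cyclic loess, a percentile without muscle genes, the authors' value table, probe means and the brightest probe over all 4 arrays kept both counts within 1.5 times, and shifted the median of all features by at most 0.09. Counts higher and lower were 137 and 280 with normexp, whose offset shrinks dim differences (32.9% of calls higher, beside 48.3%), 1946 and 2271 with features kept where 1 control array or both were well above background, 2662 and 2900 with no filter, 2733 and 2393 at 1.5-fold, and 131 and 231 at 4-fold. The fast muscle median was −2.70 with normexp, −4.73 with features on at least 1 array, −4.65 with no filter and −3.36 as a mean. It was 0.34 when the L3/4 control was set against the ISC level and 0.67 against the fused levels, other comparisons by construction. The glycolysis median was −1.19 with normexp, −2.12 with either looser filter and −1.52 with signals over the array's median. The SD over features was 0.46 with normexp, 1.19 with features on at least 1 array and 1.07 with no filter. DCN was at −0.48 with quantile normalization and −0.31 by the brightest probe over all 4 arrays. The 15 lowest and 15 highest named genes kept their sign in 318 of 318 values over 11 alternatives and 2-fold in 310. Chosen after seeing the data, counts outside the muscle and glycolysis lists were 81 and 75 named genes, and the glycolysis median without muscle genes was −1.27. No paired analysis was possible because each group is 1 array and the labels carry no replicate numbers. Dim signal limits values of the dimmest features, where the median technical error was 0.30.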

Other observations

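HOX genes, which set the identity of body levels along the spine, were looked at after their values had been seen. Of 8 named on the array, 5 were measured on both controls, with 1 higher by 2-fold or more in the L3/4 control, 0 lower and a median of 0.29. HOXA10, active in the lumbar region, had levels of −1.03, −2.24, −1.98 and −2.51 in the L3/4 control, the neighbour control, the ISC level and the fused levels, a difference of 1.20 between the controls that was 0.34 with normexp. HOXA2 was at 0.67, HOXD10 at 0.29, HOXA7 at 0.21 and HOXA4 at −0.15.

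Genes known from kidney, liver and lung were also read in this ligament. Of 17 measured, 2 were higher by 2-fold or more in the L3/4 control, the cytochrome CYP2C16 at 1.95 with 3 probes from 1.31 to 1.95 and the monooxygenase FMO5 at 1.16, and 0 were lower, with a median of 0.10. The higher share of the measured genes is near the 8.48% of all features. A further 5 genes of this list were well above background in the L3/4 control and not in the neighbour control, and 1 the other way. With these taken at their bounds, 5 of 23 were higher by 2-fold or more and 1 lower. Over all named genes, 29 of 69 bounds were higher by 2-fold or more and 43 of 97 lower. In the other direction SLC5A2, a glucose carrier of the kidney, was at least 6.73-fold lower, being well above background in the neighbour control and not in the L3/4 control. The largest bounds of genes higher in the L3/4 control, over all named genes, were CYP4A7, a fatty acid hydroxylase, at least 11.6-fold higher, DAO, an oxidase of D-amino acids, at least 8.40-fold, the vomeronasal receptor ORYCUNV1R1535 at least 6.69-fold and the receptor GNRHR at least 5.39-fold. CYP4A7 and DAO are members of the list of kidney, liver and lung genes. CYP4A7 and GNRHR were well above background on the array of the L3/4 control alone.

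Some features far apart carry no gene name here. The transcript ENSOCUT00000024850 had levels of −2.09 and 4.26 in the L3/4 control and the other control, a difference of −6.35, and ENSOCUT00000025872 was at −5.71. In the other direction ENSOCUT00000015716 had levels of 2.87 and −1.65, a difference of 4.53, and ENSOCUT00000011648 was at 3.93.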
